A study of Mus musculus with 6 samples.

Results

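The carriers that move bile acids and other organic anions across the hepatocyte were described as 10 genes, picked from the count table by their symbols. They are 4 uptake carriers of the basolateral membrane (Slc10a1, Slco1a1, Slco1a4 and Slco1b2), 4 proteins of the canalicular membrane (Abcb11, Abcb4, Abcc2 and Atp8b1) and 2 exporters that return anions to the blood (Abcc3 and Abcc4). Each symbol occurred once among the 55450 genes of the count table, and all 10 were among the 14539 genes that passed the filter on low counts. A hepatocyte takes bile acids from sinusoidal blood through basolateral carriers and pumps them into the canaliculus, the narrow channel between neighbouring hepatocytes where bile forms. Phospholipid is added to bile by a separate canalicular protein, which protects the bile duct lining from the detergent action of bile acids. When bile flow is impaired, basolateral ATP-driven exporters provide another way out of the cell, and the bile acid receptor FXR (gene symbol Nr1h4) is known to regulate several of these genes.

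Livers of 3 mice labelled LKB1 knock out (KO) and 3 labelled wild type (WT) were compared, all of strain C57BL/J and 10 weeks old. The KO mice carried LKB1 fl/fl alleles, that is, copies of the LKB1 gene (symbol Stk11, a serine/threonine kinase) flanked by loxP sites that Cre recombinase can excise. Mice of both groups received AAV8 Cre, an adeno-associated virus that delivers Cre, at 6 weeks of age, and livers were taken 4 weeks later, so virus and Cre were common to KO and WT. The labels used here name no promoter for Cre and no sex. Poly(A) RNA of the left liver lobe was sequenced with 1 library per mouse, so p-values measure the spread between mice. Because whole tissue was sequenced, fewer cells of a type and less RNA per cell cannot be told apart.

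Library totals ran from 47659122 to 56147667 counts. Levels are given as CPM, read counts scaled to a common library total after TMM normalisation, which adjusts library totals for differences in RNA composition. Stk11 was at 66.1, 64.2 and 69.7 CPM in WT 1, 2 and 3 and at 22.1, 14.4 and 11.4 CPM in KO 1, 2 and 3. It fell by 2.06 ± 0.247 (SE) on the log2 scale (adjusted p = 0.0167). Gene totals do not separate excised from intact exons. KO 1 and WT 1 stood apart from the other libraries of their groups: they held 42472 and 29243 counts of Xist, the RNA of the inactive X chromosome, against at most 16 elsewhere. Uty, Kdm5d, Eif2s3y and Ddx3y, the 4 Y-linked genes read, summed to 6 and 3 counts in KO 1 and WT 1. In the other 4 libraries they summed to between 6146 and 8199. Each group thus mixed both kinds of library, and the spread behind p-values over all 6 libraries includes any difference between these kinds. Each transporter is therefore described for all 6 libraries and for the 4 with Y-linked counts (KO 2, KO 3, WT 2 and WT 3). The ratio of KO 1 to WT 1 is given beside these, as a single pair with no test of its own. KO 1 also kept the most Stk11 of the KO libraries. Sex-chromosome state, remaining Stk11 and the single mouse therefore cannot be told apart where KO 1 differs from KO 2 and KO 3.

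Atp8b1 and Abcc3 fell in the KO livers, and no transporter passed the test as higher. These were 2 of 10 genes, against 3.37% of all genes tested, of which 1.22% were lower and 2.15% higher in KO (edgeR quasi-likelihood test, Benjamini-Hochberg adjusted p under 0.05, as for every adjusted p in this text unless another tool is named). Before adjustment, 7 of the 10 had a p under 0.05, against 26.3% of all genes, and Slco1a4 was the only one of these 7 that was higher in KO. No transporter was higher by limma voom or DESeq2 either, which called 1.75% and 8.77% of all genes higher. In 6 genes (Slc10a1, Slco1b2, Abcb11, Abcb4, Atp8b1 and Abcc3) every KO library lay below every WT library, a pattern found in 15.5% of all genes. In Slco1a4 every KO library lay above every WT library, as in 16.9% of all genes. The groups overlapped for Slco1a1, Abcc2 and Abcc4. The median log2 fold change of the 10 genes was -0.76, beside 0.01 over all genes tested.

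**Figure D1:**
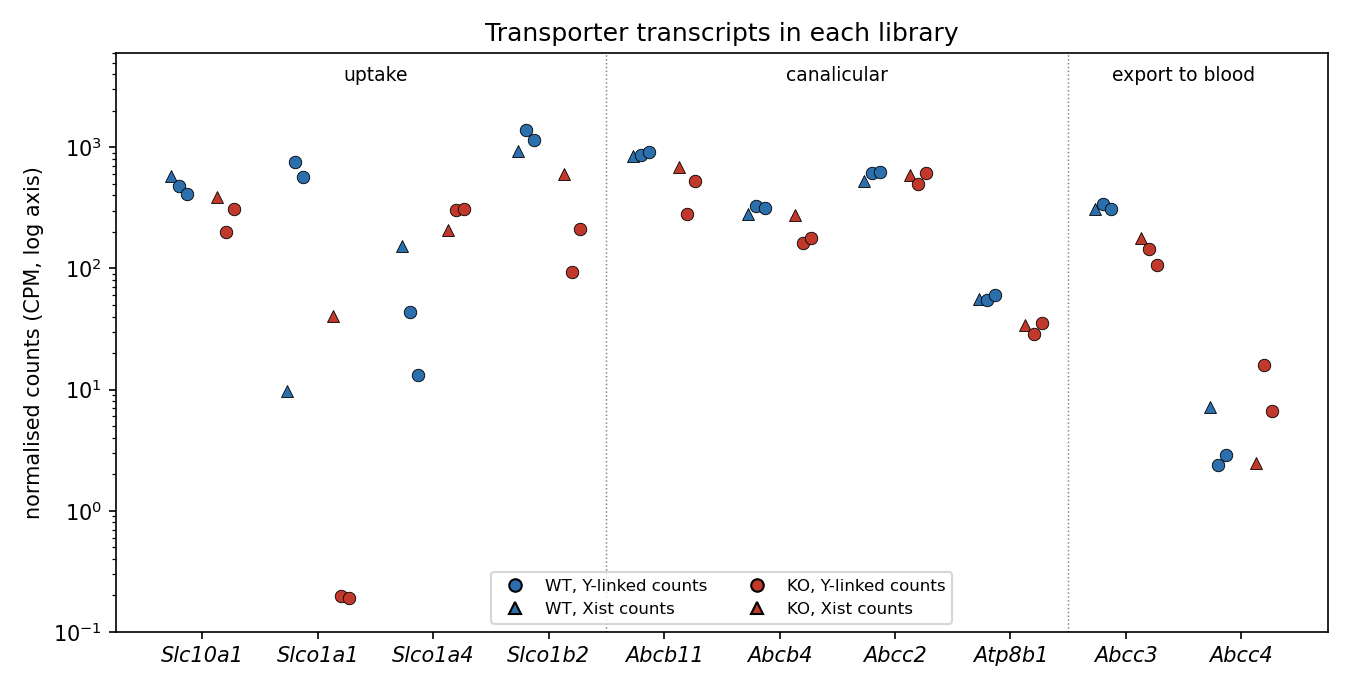
Normalised counts (CPM, log axis) of the 10 transporter genes, with 1 point per library. Blue marks WT and red KO, triangles mark the libraries with Xist counts (WT 1 and KO 1) and circles those with Y-linked counts. The Slco1a1 points run from 0.191 CPM in KO 3 to 753 CPM in WT 2, while those of Abcc2 lie between 501 and 627 CPM in all 6 libraries.

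**Figure D2:**
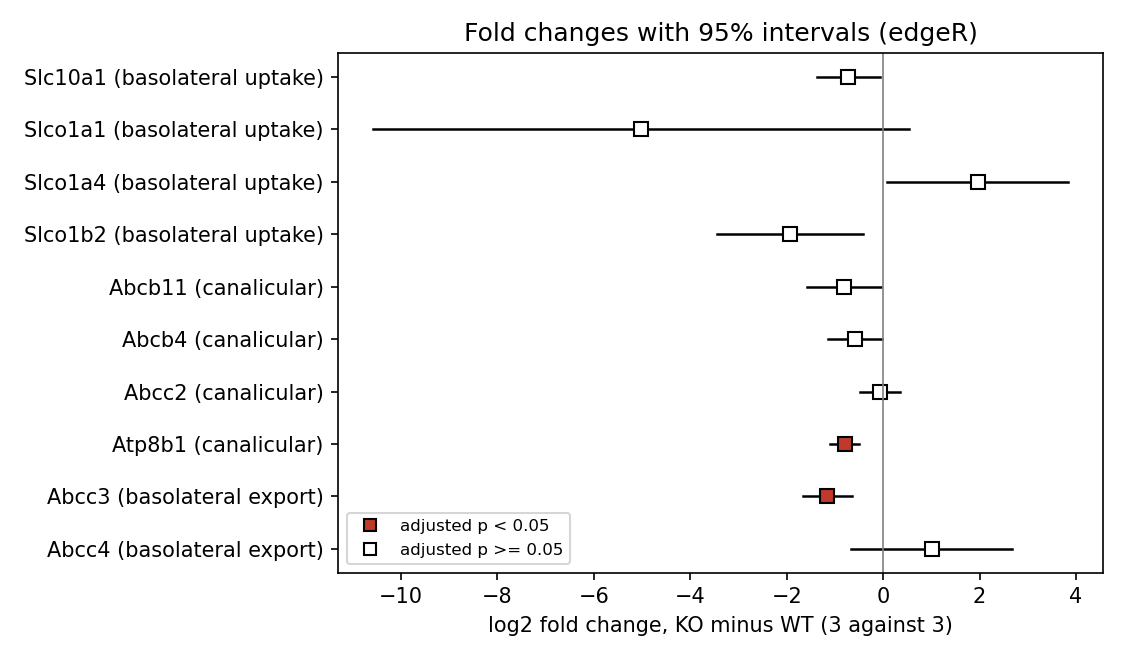
Log2 fold change of KO against WT for each transporter (squares) with its 95% interval (lines), 3 libraries against 3. Filled squares mark the 2 genes with an adjusted p under 0.05, Atp8b1 at -0.80 and Abcc3 at -1.16. The widest interval belongs to Slco1a1, from -10.58 to 0.53.

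Of the 4 uptake carriers, Slc10a1 and Slco1b2 were lower and Slco1a4 higher in all 3 KO livers, and Slco1a1 overlapped between the groups. None of the 4 passed the test over all 6 libraries. Slc10a1 encodes the sodium taurocholate cotransporting polypeptide, the main sodium-driven carrier of conjugated bile acids, and lies on chromosome 12 (80953183 to 80968705, GRCm38, GENCODE M21 annotation). It was at 579, 481 and 415 CPM in WT 1, 2 and 3 and at 386, 198 and 312 CPM in KO 1, 2 and 3. The highest KO library was below the lowest WT library, but the log2 fold change of -0.72 (95% interval -1.38 to -0.06) had an adjusted p of 0.162. Among the libraries with Y-linked counts the log2 fold change was -0.82 with an adjusted p of 0.0549, and the log2 ratio of KO 1 to WT 1 was -0.58.

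Slco1b2, Slco1a4 and Slco1a1 lie in the same cluster on chromosome 6 and encode organic anion transporting polypeptides, which take up bile acids, bilirubin conjugates, hormones and drugs without sodium. In GRCm38 coordinates Slco1b2 spans 141629518 to 141686646 on the forward strand, Slco1a4 spans 141805440 to 141856199 on the reverse strand and Slco1a1 spans 141907282 to 141946962 on the reverse strand. Of the 16 annotated genes from Slco1c1 to Slco1a5 only these 3 and the non-coding Gm30784 passed the filter. Gm30784, which lies between Slco1a4 and Slco1a1, was at 1.89, 2.22 and 1.73 CPM in WT 1, 2 and 3 and at 4.91, 2.52 and 3.71 CPM in KO 1, 2 and 3. Its adjusted p was 0.110 at a log2 fold change of 0.93.

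The 250 bases before the annotated start of these genes, and of the canalicular pump Abcb11, are shown because the 3 genes of the cluster differed in direction and because Slco1b2 and Abcb11 hold a match to the inverted repeat that FXR is known to bind. The sequences are RefSeq's (GRCm38.p6), read 5′ to 3′ on the gene's strand and ending at the base before the start. The windows are chr6:141946963-141947212 (reverse strand) for Slco1a1, chr6:141856221-141856470 (reverse strand) for Slco1a4, chr6:141629268-141629517 (forward strand) for Slco1b2 and chr2:69342617-69342866 (reverse strand) for Abcb11. The RefSeq start of Slco1a4 lies 21 bases upstream of its GENCODE start. Capitals mark matches to any of the 4 motifs named after the sequences.
Slco1a1: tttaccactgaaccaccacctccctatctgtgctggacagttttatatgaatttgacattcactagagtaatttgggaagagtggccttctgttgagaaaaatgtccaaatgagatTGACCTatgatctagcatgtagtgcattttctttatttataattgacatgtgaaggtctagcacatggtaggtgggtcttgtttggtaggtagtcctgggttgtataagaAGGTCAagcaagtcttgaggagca
Slco1a4: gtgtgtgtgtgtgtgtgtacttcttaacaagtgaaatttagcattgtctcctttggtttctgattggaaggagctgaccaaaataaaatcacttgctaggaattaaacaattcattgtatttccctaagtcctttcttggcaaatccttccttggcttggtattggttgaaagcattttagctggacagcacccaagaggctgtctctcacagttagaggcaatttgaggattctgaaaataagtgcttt
Slco1b2: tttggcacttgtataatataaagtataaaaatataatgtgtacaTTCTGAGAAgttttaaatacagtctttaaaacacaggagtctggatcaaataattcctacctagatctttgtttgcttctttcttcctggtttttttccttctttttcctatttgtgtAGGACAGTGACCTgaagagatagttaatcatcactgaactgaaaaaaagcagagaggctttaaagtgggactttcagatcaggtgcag
Abcb11: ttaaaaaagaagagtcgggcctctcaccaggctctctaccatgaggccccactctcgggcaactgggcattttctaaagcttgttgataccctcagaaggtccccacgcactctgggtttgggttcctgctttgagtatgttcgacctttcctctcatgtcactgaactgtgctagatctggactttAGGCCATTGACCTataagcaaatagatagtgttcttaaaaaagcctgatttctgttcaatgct

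The motifs, searched on both strands, were AGGTCANTGACCT with at most 1 mismatch, the half-site AGGTCA within it, the STAT palindrome TTCNNNGAA and the antioxidant element core TGACNNNGC. The inverted repeat matched 0.0799% of 32536 RefSeq promoter windows of the same length. Slco1b2 held it 88 to 76 bases before the start with the change T4A, and Abcb11 held it 63 to 51 bases before the start with the change T4C, where positions count from 1 at the motif's 5′ end and the motif's base is written first. The half-site matched 14.04% of windows and occurred in Slco1a1 (134 to 129 and 24 to 19 bases before the start), Slco1b2, Abcb11 and Abcc2. In Slco1b2 and Abcb11 it was part of the inverted repeat. The STAT palindrome matched 7.04% of windows and occurred in Slc10a1 and Slco1b2. The antioxidant core matched 10.2% and occurred in Abcc2 and Abcc4. The window of Slco1a4 held none of these letters. RefSeq windows were found for 8 of the 10 genes, and a match describes the sequence, not a bound site.

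Slco1b2, the mouse counterpart of the liver-specific human carriers of statins and bilirubin conjugates, was at 939, 1385 and 1144 CPM in WT 1, 2 and 3. It was at 605, 93.7 and 212 CPM in KO 1, 2 and 3. KO 1 was the highest KO library and WT 1 the lowest WT library, and the groups did not overlap. The log2 fold change over all 6 libraries was -1.93 (95% interval -3.44 to -0.42) with an adjusted p of 0.121, and DESeq2, which called 7.03% of genes lower, gave an adjusted p of 0.00488. Among the libraries with Y-linked counts Slco1b2 fell by 3.05 on the log2 scale (adjusted p = 0.00566), an 8.27-fold difference between the means. KO 1 was 1.55-fold below WT 1.

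Slco1a1, known for its higher expression in male than in female mouse liver, had the widest range of the 10 genes. It was at 9.82, 753 and 564 CPM in WT 1, 2 and 3 (498, 39033 and 26381 counts). In KO 1, 2 and 3 it was at 40.3, 0.198 and 0.191 CPM (2348, 11 and 9 counts). WT 1 was 67.1-fold below the mean of WT 2 and WT 3, and KO 1 was 4.10-fold above WT 1, so the groups overlapped. Over all 6 libraries edgeR gave -5.03 ± 2.35 (SE) on the log2 scale for Slco1a1 and an adjusted p of 0.227. Among the libraries with Y-linked counts Slco1a1 fell, from a mean of 658 CPM to 0.195 CPM, a 3385-fold difference. Taken as whole reads, the 20 rounded expected counts of KO 2 and KO 3 have an exact 95% Poisson interval of 12.2 to 30.9. By counting error alone this places that fold between 2191 and 5541, a range that leaves out any division of reads between genes. The edgeR log2 fold change of that subset was -11.71 with an adjusted p of 1.51e-04.

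The difference between the KO effects of both kinds of library was tested with an interaction term, in which KO 1 and WT 1 are single libraries and the spread comes from the other 4. For Slco1a1 the KO effect in KO 1 and WT 1 exceeded that in the other 4 libraries by 13.74 ± 0.459 (SE) on the log2 scale, with an adjusted p of 6.68e-04. It was the only one of the 10 genes past the threshold of this test, which 2.9% of all genes passed.

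Slco1a4, a multispecific carrier known to be higher in female mouse liver, ran the other way. It was at 154, 43.3 and 13.3 CPM in WT 1, 2 and 3 and at 207, 301 and 312 CPM in KO 1, 2 and 3. WT 1 was the highest WT library and KO 1 the lowest KO library, and the groups did not overlap. Over all 6 libraries the log2 fold change was 1.96 (95% interval 0.09 to 3.83) with an adjusted p of 0.174. Without KO 1 and WT 1, Slco1a4 rose, with a log2 difference of 3.43 and 10.8-fold between the means (adjusted p = 0.00884), whereas KO 1 was 1.34-fold above WT 1. The interaction for Slco1a4 was -3.01 with an adjusted p of 0.155, and that for Slco1b2 was 2.41 with an adjusted p of 0.145. The deposited counts of Slco1a1 and Slco1a4 held fractions in some libraries, so a part of their reads was divided between genes by the authors' estimation.

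Genes known for sex-biased expression in mouse liver differed between the same libraries as Slco1a1 and Slco1a4. The 20 male-biased genes on the list used here summed to 36193 and 43139 CPM in WT 2 and WT 3, to 979.8 CPM in WT 1 and to between 1928 and 3957 CPM in the KO libraries. Among the libraries with Y-linked counts, where 16.1% of all genes were called lower and 17.2% higher, 16 of the 20 were lower and 1 higher in KO, with a median log2 fold change of -3.86. The female-biased list summed to 3495 CPM in WT 1, 698 and 491 CPM in WT 2 and WT 3, and between 1252 and 2031 CPM in KO. Single genes carried much of these sums: Cyp4a10 was at 676 and 476 CPM in WT 2 and WT 3, and Cyp17a1 at 925 and 1236 CPM in KO 2 and KO 3. Of the 20 genes on the female-biased list 12 passed the filter on low counts. Sult2a1, at 349 CPM in WT 1 and at most 0.583 CPM in any other library, did not. In the same subset 10 of the 12 tested genes were higher in KO and 2, Cyp4a10 and Cyp2c69, lower. The part of sex or of sex-biased regulation in the transporter values was not tested.

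The make-up of the uptake transcripts, as shares of the summed CPM per kilobase of annotated exon, differed between libraries. Slc10a1 held 54.9%, 33.7% and 35.6% of the sum in WT 1, 2 and 3 and 51.9%, 57.6% and 60.7% in KO 1, 2 and 3. Slco1b2 held 39.7%, 43.3% and 43.8% in the WT libraries and 36.3%, 12.2% and 18.4% in the KO libraries. Its share in each KO library was below that in each WT library. Slco1a1 held 21.98% and 20.2% in WT 2 and WT 3 and at most 2.26% in any of the other 4 libraries. Slco1a4 held between 0.39% and 5.02% in WT and between 9.55% and 30.1% in KO. The sum itself was 479, 649 and 529.7 CPM per kilobase in WT 1, 2 and 3 and 338, 156 and 234 in KO 1, 2 and 3. These shares are a description without a test, and a share moves when any other member of the sum does.

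**Figure D3:**
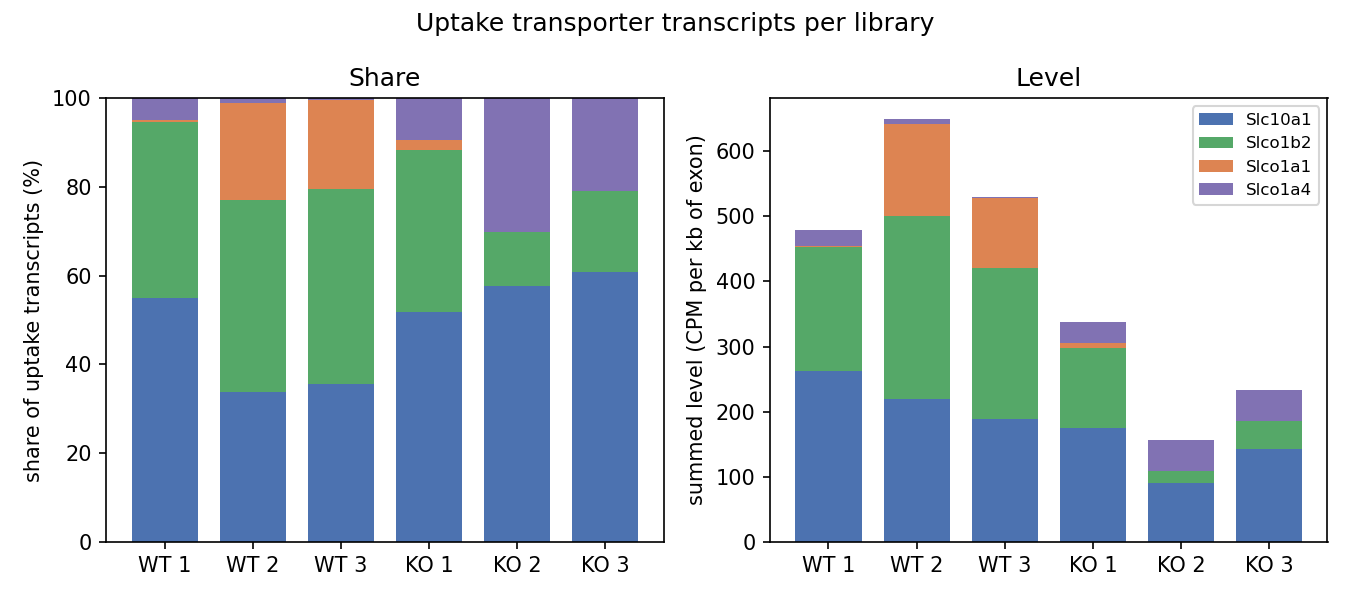
Uptake carrier transcripts in each library, as shares of their sum (left, %) and as levels (right, CPM per kilobase of exon), with 1 stacked bar per library. Slco1a1 takes 21.98% and 20.2% of the bars of WT 2 and WT 3 and is thin or invisible elsewhere, and Slco1a4 takes 30.1% and 20.8% of those of KO 2 and KO 3.

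The genes whose profiles over the 6 libraries were most like those of the 2 widest-ranging carriers were sought among 11963 genes, by the root mean square distance of centred log2 CPM. For Slco1a1, whose own range was 11.68 on the log2 scale, they were Selenbp2 (1.25), the major urinary protein genes Mup17 (1.28) and Mup19 (1.39), the pseudogene Serpina4-ps1 (1.73) and the fatty acid elongase gene Elovl3 (1.84). Selenbp2 was at 22.6, 1140.0 and 1769.8 CPM in WT 1, 2 and 3 and at 42.6, 1.60 and 2.99 CPM in KO 1, 2 and 3. Mup17 and Mup19 belong to a family of near-identical genes, so the split of reads between them is uncertain. For Slco1a4, whose range was 4.55, the nearest were Lrtm1 (0.38), the acyltransferase gene Acnat2 (0.39), the non-coding Gm44787 (0.50), Vldlr (0.51), which encodes a lipoprotein receptor, and the DNA repair gene Brca1 (0.51). Acnat2 was at 58.9, 11.1 and 6.82 CPM in WT 1, 2 and 3 and at 48.4, 101 and 84.8 CPM in KO 1, 2 and 3. These distances rest on 6 libraries and describe likeness only.

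**Figure D4:**
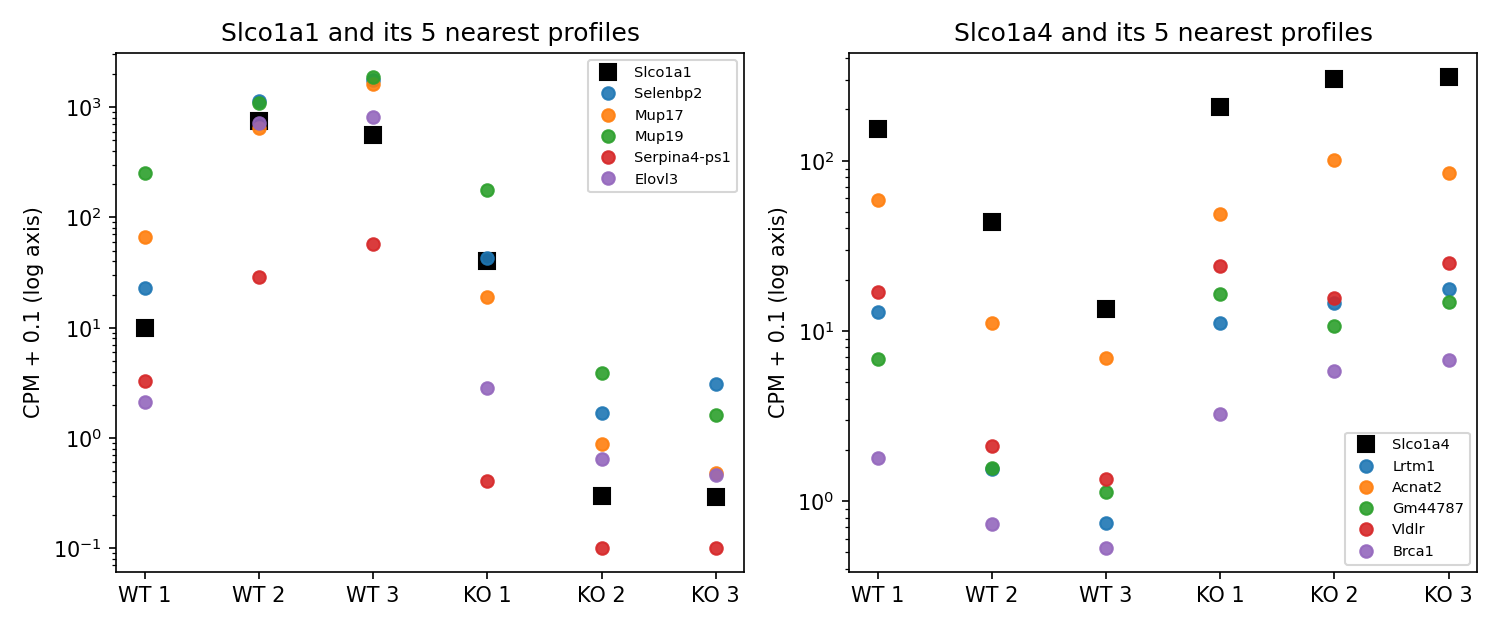
CPM plus 0.1 (log axis) of Slco1a1 (left) and Slco1a4 (right), as black squares, and of the 5 genes nearest to each in profile, as coloured circles, in each library. The Slco1a1 set is highest in WT 2 and WT 3 and lowest in KO 2 and KO 3, and the Slco1a4 set is lowest in WT 2 and WT 3.

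At the canalicular membrane Atp8b1 fell in KO, the bile salt and phospholipid pumps were lower in all 3 KO livers without passing the test, and the conjugate pump Abcc2 stayed within the WT range in 2 of the 3 KO livers. Atp8b1 encodes an aminophospholipid flippase that keeps the outer leaflet of the canalicular membrane stable against bile acids, and lies on chromosome 18. It was at 55.8, 54.7 and 60.5 CPM in WT 1, 2 and 3 and at 34.4, 28.5 and 35.2 CPM in KO 1, 2 and 3. The means were 56.99 ± 3.09 (SD, n = 3) and 32.7 ± 3.69 (SD, n = 3), a 1.74-fold difference larger than the spread in either group. On the log2 scale Atp8b1 fell by 0.80 ± 0.128 (SE, 95% interval -1.10 to -0.50), at an adjusted p of 0.0319. It was -0.86 among the libraries with Y-linked counts (adjusted p = 0.00875), and the log2 ratio of KO 1 to WT 1 was -0.69. Leaving out any 1 library other than KO 1 raised the adjusted p of Atp8b1 to between 0.0648 and 0.167.

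Abcb11, the bile salt export pump on chromosome 2 (69238282 to 69342616), was at 844, 867 and 919 CPM in WT 1, 2 and 3. The KO libraries were at 691, 280.1 and 526 CPM, all below WT. The coefficient of variation was 4.34% in WT and 41.4% in KO. Over all 6 libraries Abcb11 had a log2 fold change of -0.81 (95% interval -1.58 to -0.04) with an adjusted p of 0.172. Without KO 1 and WT 1, Abcb11 fell by 1.15 on the log2 scale (adjusted p = 0.0410), 2.22-fold between the means, and KO 1 was 1.22-fold below WT 1.

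Abcb4, the floppase that moves phosphatidylcholine into bile, on chromosome 5 (8893717 to 8959231), was at 282, 326 and 316 CPM in WT 1, 2 and 3. It was at 277, 161 and 177 CPM in KO 1, 2 and 3. KO 1 and WT 1 differed by 1.02-fold, whereas KO 2 and KO 3 were far below WT 2 and WT 3. The log2 fold change was -0.59 (95% interval -1.14 to -0.03) with an adjusted p of 0.172 over all 6 libraries. Among the libraries with Y-linked counts it was -0.93 with an adjusted p of 0.00693. The interaction for Abcb4 was 0.90 with an adjusted p of 0.132.

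Abcc2, the canalicular pump for bilirubin and drug conjugates on chromosome 19 (43782192 to 43840740), was at 528, 615 and 627 CPM in WT 1, 2 and 3. The KO libraries were at 587, 501 and 608 CPM, and the groups overlapped. The log2 fold change was -0.06 with an adjusted p of 0.850, and its 95% interval of -0.47 to 0.35 bounds the difference. It was -0.17 among the libraries with Y-linked counts (adjusted p = 0.500) and 0.03 without KO 2.

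The exporters to the blood did not share a direction. Abcc3, which carries glucuronides and bile acids across the basolateral membrane and lies on chromosome 11 (94343295 to 94392997), was at 311, 343 and 307 CPM in WT 1, 2 and 3. It was at 178, 146 and 107 CPM in KO 1, 2 and 3, with no overlap. The means were 320.4 ± 19.6 (SD, n = 3) and 144 ± 35.7 (SD, n = 3), and Abcc3 fell 2.23-fold, by 1.16 ± 0.213 (SE) on the log2 scale (95% interval -1.66 to -0.65, adjusted p = 0.0431). Without KO 1 and WT 1 it fell by 1.37 on that scale (adjusted p = 0.00617), and the log2 ratio of KO 1 to WT 1 was -0.81. With library totals in place of TMM scaling the adjusted p of Abcc3 was 0.0582, and leaving out any 1 library other than KO 1 raised it to between 0.0854 and 0.210.

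Abcc4, an exporter of bile acids together with glutathione and of cyclic nucleotides, had the lowest mean CPM of the 10 in both groups except for a lower Slco1a1 in KO 2 and KO 3, and lies on chromosome 14 (118482692 to 118706219). It was at 7.22, 2.37 and 2.87 CPM in WT 1, 2 and 3 and at 2.49, 15.9 and 6.69 CPM in KO 1, 2 and 3. The groups overlapped because WT 1 was high and KO 1 low. The log2 fold change of 1.01 had a 95% interval of -0.66 to 2.68 and an adjusted p of 0.397. Among the libraries with Y-linked counts Abcc4 rose, by a log2 difference of 2.11 (adjusted p = 0.0170), 4.32-fold between the means, while KO 1 was 2.90-fold below WT 1. Its interaction was -3.65 with an adjusted p of 0.0734.

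Restricted to the 4 libraries with Y-linked counts, a test with 2 libraries per group, 2 of the 10 genes were higher in KO (Slco1a4 and Abcc4) and 6 lower (Slco1a1, Slco1b2, Abcb11, Abcb4, Atp8b1 and Abcc3). Of all genes in that fit 33.3% were called, 17.2% higher and 16.1% lower. Slc10a1 and Abcc2 did not pass the threshold there. With KO 1 alone left out, Slc10a1 passed as well (log2 fold change -0.96, adjusted p = 0.0348), and 7 of the 10 genes were lower against 14.2% of all genes. Slco1a4 and Abcc4 did not pass without KO 1 (adjusted p = 0.120 and 0.105), and 0 transporters were higher, against 16% of all genes. The size of the log2 ratio was larger in the libraries with Y-linked counts than between KO 1 and WT 1 for all 10 genes. This held for 63.9% of all genes tested. The sign differed between the subsets for Slco1a1, Abcc2 and Abcc4, which is 3 of 10 genes against 37% of all genes, computed on mean CPM plus 0.1. The interaction had an unadjusted p under 0.05 for 5 of the 10 genes, against 20.9% of all genes. KO 1 was also the highest KO library for Slc10a1, Slco1a1, Slco1b2, Abcb11, Abcb4 and Abcc3, for which no share over all genes was computed. The coefficient of variation was larger in KO than in WT for 9 of the 10 genes, Slco1a4 being the exception, and for 72.9% of all genes tested.

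**Figure D5:**
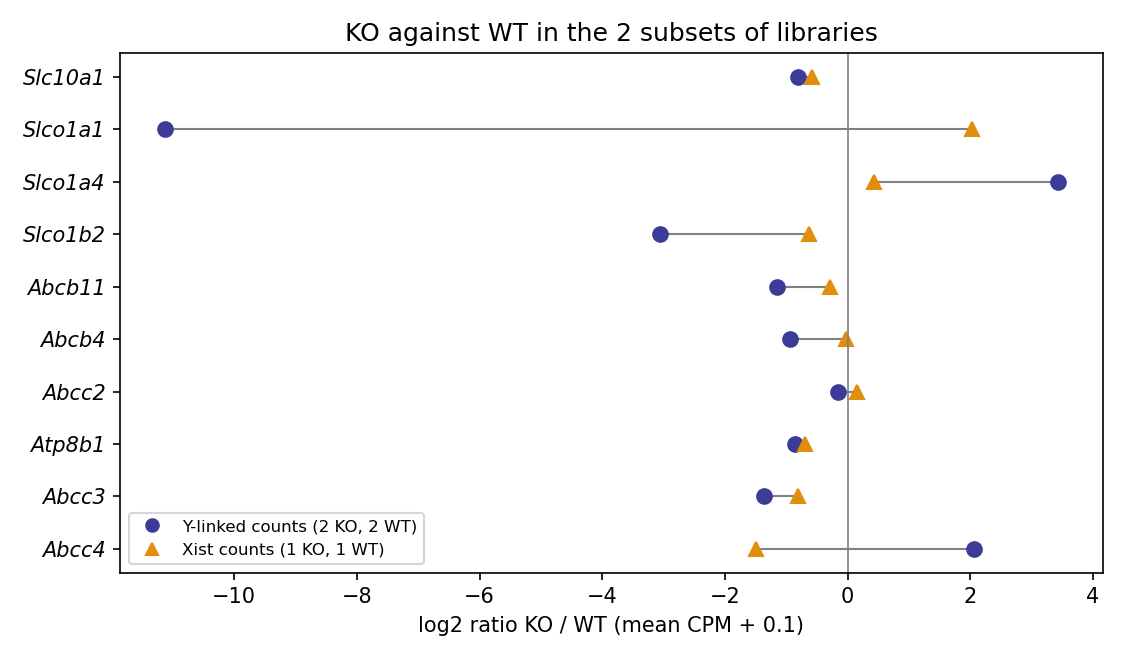
Log2 ratio of KO to WT (mean CPM plus 0.1) for each transporter, in the libraries with Y-linked counts (circles, 2 KO and 2 WT) and between KO 1 and WT 1, the libraries with Xist counts (triangles, 1 KO and 1 WT). The circle lies farther from 0 than the triangle for all 10 genes, and for Slco1a1 they stand at -11.13 and 2.03.

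Levels of different genes were compared as CPM per kilobase of annotated exon. In WT the order was Slco1b2 at 235 ± 45.4, Slc10a1 at 223 ± 37.5, Abcb11 at 170.4 ± 7.39, Slco1a1 at 83.8 ± 73.2 and Abcc2 at 69.1 ± 6.34 (SD, n = 3 for each). Abcc3 at 56.2 ± 3.44, Abcb4 at 32.8 ± 2.44, Slco1a4 at 10.95 ± 11.6, Atp8b1 at 8.48 ± 0.461 and Abcc4 at 0.650 ± 0.417 followed (SD, n = 3 for each). The neighbours Slco1b2 and Slc10a1, Slco1a1 and Abcc2, and Slco1a4 and Atp8b1 overlapped in that order. The order depends on the length used: per kilobase of the longest transcript Abcb4 was at 75.5, above Abcc2 at 73.5 and Abcc3 at 64.01, and Slco1a4 was at 18.4. In KO the order was Slc10a1 at 136 ± 43.3, Abcb11 at 96.96 ± 40.2, Abcc2 at 66.3 ± 6.64, Slco1b2 at 61.6 ± 54.3 and Slco1a4 at 42.6 ± 8.98 (SD, n = 3 for each). Abcc3 at 25.2 ± 6.26, Abcb4 at 21.8 ± 6.69, Atp8b1 at 4.87 ± 0.549, Slco1a1 at 2.57 ± 4.39 and Abcc4 at 1.31 ± 1.08 came after (SD, n = 3 for each). Only the steps from Slco1a4 to Abcc3 and from Abcb4 to Atp8b1 were without overlap between neighbours in KO. By mean, Slco1b2 held rank 1 in WT and rank 4 in KO, and Slco1a4 held ranks 8 and 5.

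Other carriers of the same membranes were counted from lists. Among 13 tested uptake carriers outside the 10 genes 1 was higher and 1 lower in KO, with a median log2 fold change of -0.21. Without KO 1 and WT 1, 2 were higher and 5 lower, beside 17.2% and 16.1% of all genes in that fit. Slc22a3, an organic cation transporter gene, rose from 2.41, 2.58 and 3.08 CPM in WT 1, 2 and 3 to 16.1, 39.5 and 24.1 CPM in KO 1, 2 and 3 (log2 fold change 3.30, adjusted p = 0.0109, and 3.49 without KO 1 and WT 1). Slc22a23 had a log2 fold change of -1.17 (adjusted p = 0.0132) and of -1.16 without KO 1 and WT 1. Among 12 other canalicular exporters and their partners 2 were higher and 0 lower: Abcg5 (log2 fold change 2.30, adjusted p = 0.0334) and Abcg8 (1.93, adjusted p = 0.0329), which together form the biliary sterol exporter. In the libraries with Y-linked counts their log2 fold changes were 2.85 and 2.34, the log2 ratios of KO 1 to WT 1 were 0.99 and 0.90, and 4 genes of the list were higher and 2 lower. These genes lie head to head and overlap on opposite strands, so without strand information reads in the overlap cannot be told apart.

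None of the 7 other basolateral exporters passed the edgeR test, 1 had an unadjusted p under 0.05, limma voom called 0 and DESeq2 called 1 lower. Without KO 1 and WT 1 edgeR called 1 higher and 2 lower, beside 17.2% and 16.1% of all genes. Slc51a, a subunit of the organic solute transporter that returns bile acids to the blood, had 0 counts in all 6 libraries. Its partner Slc51b was at 0.749, 0.251 and 0.107 CPM in WT 1, 2 and 3 and at 0.926, 0.864 and 1.38 CPM in KO 1, 2 and 3 (adjusted p = 0.203, and 0.0153 without KO 1 and WT 1).

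Of 21 tested bile acid sensors and regulators 1 was higher and 1 lower, with a median log2 fold change of 0.07. Without KO 1 and WT 1, 4 were higher and 6 lower, beside 17.2% and 16.1% of all genes. Nr0b2, the small heterodimer partner that FXR induces, fell from 31.1, 27.8 and 28.7 CPM in WT 1, 2 and 3 to 18.9, 14.8 and 17.5 CPM in KO 1, 2 and 3. The adjusted p of Nr0b2 was 0.0347 at a log2 fold change of -0.77 ± 0.131 (SE), which was -0.81 without KO 1 and WT 1. Fgfr4, the hepatocyte receptor for the intestinal bile acid signal FGF15, rose by 0.67 (log2, adjusted p = 0.0448), and by 0.79 without KO 1 and WT 1. Nr1h4 itself was at 79.02, 91.8 and 79.2 CPM in WT 1, 2 and 3 and at 63.4, 41.1 and 41.9 CPM in KO 1, 2 and 3, with no overlap. Its log2 fold change was -0.77 with an adjusted p of 0.0755, and -1.05 with an adjusted p of 0.00319 among the libraries with Y-linked counts.

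Among 17 genes of bile acid synthesis and conjugation 1 was lower in KO, Cyp27a1 of the alternative pathway (log2 fold change -1.21, adjusted p = 0.0226), and 0 were higher, with a median of -0.73. DESeq2 called 5 of the 17 lower and 0 higher. In the libraries with Y-linked counts 10 of the 17 were lower and 1 higher, beside 16.1% and 17.2% of all genes, and Cyp27a1 had a log2 fold change of -1.25. Cyp7a1, the rate-limiting enzyme of the classical pathway, was at 61.7, 66.7 and 83.6 CPM in WT 1, 2 and 3 and at 80.5, 3.51 and 11.7 CPM in KO 1, 2 and 3 (adjusted p = 0.487). KO 1 lay within the WT range and KO 2 and KO 3 far below it, and without KO 1 and WT 1 Cyp7a1 had a log2 fold change of -3.32 (adjusted p = 0.00913). None of the 19 scaffold and trafficking genes of the canalicular membrane passed edgeR, 4 had an unadjusted p under 0.05, limma voom called 0 and DESeq2 called 1 lower. Of them 0 were higher and 6 lower without KO 1 and WT 1. None of the 15 genes of bilirubin and anion conjugation passed edgeR, 6 had an unadjusted p under 0.05, limma voom called 0, and DESeq2 called 4 higher and 2 lower. Of these 5 were higher and 4 lower without KO 1 and WT 1.

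Summed hepatocyte and endothelial markers were lower in every KO library than in every WT library. The 12 hepatocyte markers summed to between 114141 and 162041 CPM in the WT livers, against 38474 to 97844 CPM in KO. The largest part of each sum was Alb, at 95626, 69977 and 57064 CPM in WT 1, 2 and 3. In KO 1, 2 and 3 Alb was at 50549.7, 10394 and 17534 CPM. Of the 12 log2 fold changes 9 were below 0 and 3 above, with a median of -0.75. The edgeR test called 1 gene, Tat, which was higher (5 at an unadjusted p under 0.05, 1 higher and 1 lower by limma voom, 1 higher and 6 lower by DESeq2). The 12 endothelial markers summed to 290.1 to 394 CPM in WT and 151 to 247 CPM in KO, with a median of -0.75 and 0 called by edgeR (10 at an unadjusted p under 0.05, 0 by limma voom, 5 lower by DESeq2). The 12 stellate markers summed to 223 to 493 CPM in WT and 124 to 300.2 CPM in KO. All 12 log2 fold changes were below 0, with a median of -0.64. Of these genes 0 were called, 0 had an unadjusted p under 0.05 and 0 were called by the other tools. The 12 Kupffer and immune markers summed to 150.3 to 205 CPM in WT and 109.6 to 242 CPM in KO. Of their log2 fold changes 7 were below 0 and 5 above, with a median of -0.28. Here 0 were called, 1 had an unadjusted p under 0.05 and 0 were called by the other tools. The 11 tested cholangiocyte markers summed to 87.2 to 125 CPM in WT and 104 to 187 CPM in KO, with a median log2 fold change of 0.04. Of them 1 was called, Prom1 (log2 fold change 4.21, adjusted p = 0.0442), which is also on the female-biased list. Prom1 was at 6.98, 1.08 and 1.13 CPM in WT 1, 2 and 3 and made up a large part of the KO sums. It was at 63.5, 39.2 and 68.4 CPM in KO 1, 2 and 3. Among genes known for position along the liver lobule, 1 of 16 pericentral genes was higher (Oat) and 2 were lower (Cyp27a1 and Cyp1a2), and 14 of the 16 had a log2 fold change below 0, as did 49% of all genes. Of 16 periportal genes 6 were higher, Gls2, Fbp1 and Etnppl with the smallest adjusted p, and 0 lower, beside 2.15% and 1.22% of all genes, with a median log2 fold change of 1.24. Without KO 1 and WT 1, 1 pericentral gene was higher and 11 lower, and 11 periportal genes were higher and 2 lower. For the same 4 libraries edgeR called 1 hepatocyte marker higher and 5 lower, 0 endothelial markers higher and 10 lower, and 0 stellate markers higher and 6 lower. It called 1 Kupffer and immune marker higher and 4 lower, and 1 cholangiocyte marker higher and 2 lower. Of all genes, the fit to these 4 libraries called 17.2% higher and 16.1% lower. DESeq2 on all 6 libraries called 8.77% of all genes higher and 7.03% lower. The part of cell composition and lobular position in the transporter values was not tested.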

How the data were processed

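Per the labels, poly(A) RNA of 6 mouse livers was sequenced as paired reads of 76 bases. The authors deposited a table of expected counts per gene, which need not be whole (4.93% to 5.47% of values per library held a fraction). The submitters' processing notes name bcl2fastq 2.17, cutadapt 1.18, STAR 2.7.0f, RSEM 1.3.1 and the build mm9. All 55450 gene IDs and symbols match GENCODE mouse release M21, which is on GRCm38, and coordinates and exon lengths were taken from that release. Samples were grouped by their labels, and every per-sample column was mapped. Every pair of libraries differed by more than sampling noise.

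Expected counts were rounded and tested with edgeR 4.0.16 in R 4.3.3: filterByExpr by group (14539 genes kept), TMM scaling, glmQLFit and glmQLFTest with group as the only term, and Benjamini-Hochberg adjustment over all genes with a threshold of 0.05. The common biological coefficient of variation was 0.314. The same fit was repeated on the 4 libraries with Y-linked counts, and with an interaction of group and sex-chromosome state, a state read from Xist and 4 Y-linked genes because the labels used here do not give it. Library totals leave counting error small against the spread between mice, except for Slco1a1 in KO 2 and KO 3. Scripts were tested on simulated data. Of 10 genes, 5 overlap 9 other annotated genes, none with more than 13 counts in a library.

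Alternatives were limma 3.58.1 (voom), DESeq2 1.42.0, other scaling, no low-count filter, the replicate number as a block, the state as a term, and leaving out each library. The numbers in the titles were not taken to pair the mice. Levels per kilobase use the union of annotated exons. The members and lists were chosen with earlier results of these data known. Genes named outside the 10 were, per list, those past the threshold (at most 3 by smallest adjusted p). Stk11, Nr1h4, Nr0b2, Cyp7a1, Slc51a, Slc51b and the 5 nearest profiles of the 2 widest-ranging carriers were named as well. Gm30784, Cyp4a10, Cyp17a1, Cyp2c69, Sult2a1, Alb and the genes of the closing observations were chosen after their values were seen. Protein sequences were not used here.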

Additional observations from a re-analysis of the deposited data

Results flagged for a closer look

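The Slco1a1 difference between KO and WT was not the same in KO 1 and WT 1 as in KO 2, KO 3, WT 2 and WT 3. The interaction of group and sex-chromosome state was 13.74 on the log2 scale (edgeR quasi-likelihood test, adjusted p = 6.68e-04), with KO 1 above WT 1 (40.3 against 9.82 CPM) and KO 2 and KO 3 below WT 2 and WT 3 (0.198 and 0.191 against 753 and 564 CPM). The state with Xist counts has 1 library per group, so its own spread is not measured. KO 1 also kept the most Stk11 of the KO libraries, so state, remaining Stk11 and the single mouse cannot be told apart here.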

How the results depend on the processing

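Over the 14 alternatives per gene, 9 of the 10 transporters kept the sign of their log2 fold change; that of Abcc2 was 0.03 without KO 2 and at its lowest, -0.14, without WT 1 among the leave-one-out fits. Atp8b1 kept its call in 8 and Abcc3 in 7. With the replicate number as a block, 79 genes were higher and 26 lower, 0 transporters were called, and the adjusted p was 0.0671 for Atp8b1 and 0.0818 for Abcc3. Same-numbered mice had correlations of deviations of 0.178, 0.044 and 0.068. KO 1 correlated best with WT 1, KO 2 with WT 3 (0.12) and KO 3 with WT 2 (0.203). These values cannot exclude pairing, because groups are small and KO 1 and WT 1 share the Xist counts. The numbers were not taken as pairs because the labels state no pairing. In place of 313 genes higher and 177 lower, DESeq2 called 1271 and 1019, no filter 485 and 286, the state as a term 779 and 725, and the libraries with Y-linked counts 2507 and 2340. Leaving out 1 library gave 5 to 2372 higher and 1 to 2101 lower, the highest without KO 1 and the lowest without WT 2. By library totals alone 380 were higher and 131 lower, and the median log2 fold change of all genes was 0.06.

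Transporters called lower numbered 1 by library totals, 0 with the block, 6 in the libraries with Y-linked counts (2 higher), and 0 to 7 when 1 library was left out. It was 7 without KO 1 and 0 without each of the others. Slco1b2 was called in addition by DESeq2 (adjusted p = 0.00488). Slco1a4 and Abcc4 were each called higher in 1 of the 14 alternatives, the fit to the libraries with Y-linked counts. Without the filter 1607 genes and 4 transporters passed the interaction test, in place of 421 and 1. With the longest transcript as length, WT levels were 281 for Slc10a1, 349.6 for Slco1b2, 75.5 for Abcb4 and 64.01 CPM per kilobase for Abcc3. With it, in an alternative chosen after seeing the data, Slc10a1 held a mean of 51.2% of uptake transcripts in KO (56.8% with exon unions) and Slco1b2 45.7% in WT (42.3%). Apart from the leave-one-out fits, which test fewer libraries, the cause of these shifts was not tested. With 3 mice per group an exact two-sided permutation test of 1 gene cannot go below p = 0.10.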

Other observations

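Among the other transporters and the genes of bile acid synthesis, several had a KO effect that differed between the kinds of library, in either direction (interaction of group and state, edgeR quasi-likelihood test). These genes were chosen after their values were seen. Of 13 other uptake carriers 2 passed, of 12 other canalicular exporters 3, of 7 other basolateral exporters 0, and of 17 synthesis genes 3, beside 2.9% of all genes. The KO effect was higher in KO 1 and WT 1 than in the other 4 libraries for 5 of these 8 genes, and lower for Abcb1a (interaction -2.15), Abcg5 (-1.86) and Cyp39a1 (-2.77). Slc22a7, an organic anion transporter gene, was at 22.02, 35.3 and 29.3 CPM in WT 1, 2 and 3 and at 22.4, 0.720 and 0.679 CPM in KO 1, 2 and 3 (adjusted p = 0.00187). Abcg2, a canalicular exporter of urate and sulphated conjugates, was at 36.3, 137 and 141 CPM in WT 1, 2 and 3 and at 42.5, 32.01 and 37.9 CPM in KO 1, 2 and 3 (adjusted p = 0.0128). WT 1 was thus near the KO libraries for Abcg2, whereas KO 1 was near the WT libraries for Slc22a7.

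Cyp8b1, the sterol 12-alpha hydroxylase that sets the share of cholic acid, was at 140.3, 466 and 459 CPM in WT 1, 2 and 3 and at 406, 42.2 and 30.9 CPM in KO 1, 2 and 3 (adjusted p = 0.00508). Slc10a2, the ileal-type bile acid carrier, was at 5.13, 21.4 and 16.4 CPM in WT 1, 2 and 3 and at 20.3, 4.83 and 7.79 CPM in KO 1, 2 and 3 (adjusted p = 0.0234). Both were higher in KO 1 than in WT 1 and lower in KO 2 and KO 3 than in WT 2 and WT 3.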
